A study of Mus musculus with 7 samples.

Results

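The comparison described here set the neocortex of newborn Emx1-Ptbp2KO mice against that of wildtype mice, exon by exon. Its members were the 520 exons, from 455 gene symbols, that the authors listed as regulated by PTBP2, either alone or together with PTBP1, out of 611 exons listed for the 3 genotypes of the series. Both libraries came from neocortices of 129/BL6 mice at postnatal day 1 (P1), and they differ in the labels by genotype alone. Each library may hold 1 mouse or a pool, which the labels leave unsaid. The series has 7 libraries, 1 per group; its other groups are a P1 line with an added Ptbp1 knock-in, which is not used here, and BL6 neocortex at embryonic days 14 and 17 (E14, E17) and postnatal days 2 and 10 (P2, P10), used below as a second readout of the same exons.

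PTBP2 is an RNA-binding protein of young neurons that binds pyrimidine-rich RNA and, mostly, keeps the splicing machinery from including a nearby exon; at some exons it has the opposite effect. Its level falls as neurons mature, and many exons it holds back then appear in the mRNAs of synaptic, channel and cytoskeletal genes. Emx1 is a transcription factor gene of the lineage that gives rise to cortical excitatory neurons and glia. Cortical interneurons arise outside that lineage. The labels do not say how Emx1 enters the genotype, so which cells of the knockout tissue still held PTBP2 is not known from them, and Ptbp2 expression was not analysed here. In whole tissue, a change of inclusion within cells and a change in the mix of cells cannot be told apart.

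The value of an exon was its deposited inclusion ratio, given here in percent and called its level. How that ratio was computed is not given. Nested exons of Aen, which overlap, stood at 98.7% and 98.9% in wildtype, so a level is not read as a share of all transcripts of the gene. A change is the knockout level minus the wildtype level in percentage points. The depth behind each level is unknown, and 1 library per genotype gives no error between mice. The changes are therefore descriptions of 2 libraries, with no test. They are also what the exons were listed for: in the 4 classes used, the smallest change was 10.01 points, whereas the largest among the 91 exons listed under PTBP1 alone was 9.87. Of all listed exons, 85.1% changed by at least 10 points, 68.4% upward and 16.7% downward, and nothing is read from those shares.

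Among the members, 418 were higher in the knockout and 102 were lower. The size a change can have depends on where the exon stands in wildtype. Exons were therefore divided by wildtype level into those mostly skipped (below 20%), those in between (20 to 80%) and those mostly included (above 80%). These names stand for the level alone. The second division was by whether the knockout level lay on the other side of 50% from the wildtype level. Such a crossing describes the level alone, and which form of the mRNA was the commoner is not known from it.

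**Figure D1:**
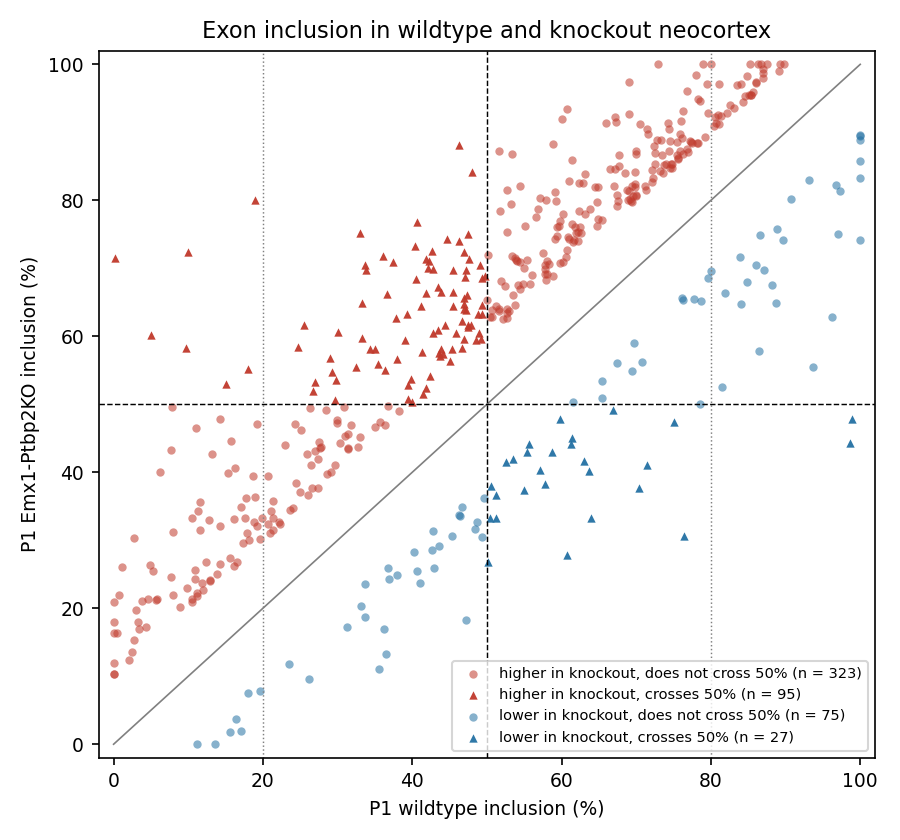
Inclusion of each of the 520 exons in P1 wildtype (x axis, percent) and P1 Emx1-Ptbp2KO (y axis, percent); red exons were higher and blue exons lower in the knockout, and triangles crossed 50%. Dotted lines stand at 20 and 80% and dashed lines at 50%. The empty band along the diagonal is the 10-point limit of the lists, and the upper left quadrant holds 95 exons against 27 in the lower right.

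The sequences of 3 sets of exons show what kind of RNA segments are meant. The first is a pair of 91-nt coding exons of Clk1 and Clk4, kinases that phosphorylate SR splicing factors. Both were among the exons whose level was lower in the knockout by the widest margins, and the sequences (5′ to 3′, read from GENCODE M21 transcripts on GRCm38) have 85 of 91 bases in common. Capitals mark the 6 positions that differ.
Clk1, chromosome 1, 58420121 to 58420211, minus strand: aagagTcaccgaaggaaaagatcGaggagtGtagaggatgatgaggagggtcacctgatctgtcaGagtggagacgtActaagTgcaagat
Clk4, chromosome 11, 51273078 to 51273168, plus strand: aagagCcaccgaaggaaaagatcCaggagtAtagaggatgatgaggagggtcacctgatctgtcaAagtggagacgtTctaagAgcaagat

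The second set is of very short coding exons, of 27 nt or less, which insert only a few amino acids. Capitals mark runs of at least 4 pyrimidines within the exon; the intron sequences around it were not analysed here. Csnk1g1, Gramd1b, Ccdc64 and Diap2 had the largest changes among coding exons of this size, and Enah and Kif1a are shown for their neuronal roles.
Csnk1g1, chromosome 9, 66035050 to 66035073, plus strand: ctgcctgaaaatgctcaacctgtg
Gramd1b, chromosome 9, 40300440 to 40300451, minus strand: gatctgTTTCag
Ccdc64, chromosome 5, 115672144 to 115672155, minus strand: caggTCCTTgaa
Diap2, chromosome X, 129825927 to 129825947, plus strand: atagttggaagtaaagTTCTg
Enah, chromosome 1, 181931174 to 181931185, minus strand: tgTTCTatttag
Kif1a, chromosome 1, 93026832 to 93026855, minus strand: cgTTTCCTTCggaaatgacactag

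The third set is the pair of small exons of Agrn, marked in the same way. Agrin made by neurons carries inserts from these exons and organises acetylcholine receptors at the neuromuscular junction.
Agrn, chromosome 4, 156168546 to 156168569, minus strand: cgagctgaccaatgagaTCCCagc
Agrn, chromosome 4, 156167777 to 156167809, minus strand: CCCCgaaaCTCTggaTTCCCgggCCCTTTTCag

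The 80 exons that were mostly skipped in wildtype and higher in the knockout had wildtype levels from 0 to 19.9%. Median inclusion in this group was 11.0% for wildtype against 26.8% for knockout, the median change was 16.5 points, and 29 of them (36.3%) changed by at least 20 points. For comparison, 27.3% of all exons higher in the knockout did so, with 27.7% at intermediate wildtype level. Above 80% the share was 0%, since no exon there can rise by 20 points, and the 27.3% includes those 31 exons. Among exons lower in the knockout the share was 22.5%, and 35.7% for those above 80% in wildtype. Over all listed exons it was 22.4% in either direction, but the 91 listed under PTBP1 alone all changed by less than 10 points. Most of these exons stayed below 50%, since 7 of the 80 crossed it. The widest gaps of all members lay here: an untranslated exon of Sympk, a scaffold of mRNA 3′ end processing, stood at 0.220% in wildtype against 71.5% in the knockout, and an exon of Stam2, an endosomal sorting protein, stood at 4.96% and 60.2%.

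Several neuronal coding exons of this group went from very low levels to higher ones still below 50%. The 57-nt exon of Unc13a, which primes synaptic vesicles for release, stood at 1.12% in wildtype against 26.1% in the knockout. In Cyfip2, a subunit of the complex that drives branched actin, a 75-nt exon was at 0.705% and 22.0%. The 30-nt exon of the fission GTPase Dnm2 reached 49.5% from 7.80%, just under the 50% line.

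Signalling kinases were also found here. The 24-nt exon of Csnk1g1, a casein kinase 1 isoform, stood at 15.03% in wildtype against 53.0% in the knockout, and was 1 of the 7 that crossed 50%. A 120-nt exon of Braf, a kinase that relays growth factor signals to the MAP kinases, stood at 15.8% and 44.6%. A 49-nt exon of Trpm7, a cation channel with its own kinase domain, was at 17.99% and 55.1% and is annotated only in a non-coding transcript.

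The exon types differed by level in the annotation. Of the 80 mostly skipped exons, 36 (45%) were fully coding in a protein-coding transcript, against 213 of the 307 exons in between (69.4%) and 24 of the 31 mostly included (77.4%). Some exons matched no protein-coding transcript but did match a transcript marked for nonsense-mediated decay (NMD), the pathway that degrades mRNAs with early stop codons. They numbered 15 of 80 (18.8%), 17 of 307 (5.54%) and 0 of 31. Those 15 included exons of Pum2, Ikzf4, Clk4, Stam2, Ptch1, the receptor of hedgehog proteins, and Prpf3, a spliceosome component. Ptch1 had its 127-nt exon at 14.3% in wildtype against 47.8% in the knockout; the exons of Pum2, a translational repressor, were at 13.2% and 42.7% and at 11.1% and 46.4%.

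At the lower edge of this group, 6 exons were at 0% in wildtype. Their knockout levels were between 10.3 and 20.9%, and they lay in Casp8, Dennd1b, Egflam, Pld1, Slc35a3 and 5830418P13Rik. A level of 0 says only that no inclusion was recorded at an unknown depth. The Egflam exon, at 0% in P1 wildtype, was at 43.6% in the P2 library and 18.03% in the knockout.

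The 307 exons of intermediate wildtype level made up 73.4% of those higher in the knockout. The median level there was 52.9% for wildtype against 71.1% for knockout, with a median change of 15.02 points and a largest change of 42.2. That largest change belonged to Scrib, which scaffolds apical and basal polarity, in a coding exon of 84 nt (chromosome 15, 76049457 to 76049540) at 33.02% and 75.2%. Fmnl1, a formin that elongates actin filaments, followed with a 99-nt exon at 46.3% and 88.2%. A 99-nt exon of Cnnm3, of a family linked to magnesium transport, was at 33.7% and 70.4%. An exon of Pisd-ps1 was at 48.0% and 84.1%, but the gene is a pseudogene by its name, and reads may be shared with its parent gene.

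Only 31 of the exons higher in the knockout were above 80% in wildtype. They had little room: a wildtype level above 90% cannot be exceeded by 10 points, and the highest wildtype level among them was 89.8%. Their changes ranged from 10.04 to 16.02 points with a median of 11.1, and their median level went from 85.2% to 96.9%. The largest changes were in Egfem1 (81.1% and 97.1%), Tex26 (85.2% and 100%), Spopl, an adaptor of cullin ubiquitin ligases (86.3% and 100%), and Bicd1, a dynein adaptor (83.4% and 96.9%).

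Put as a share of the range left above the wildtype level, the order was the reverse. The median exon used 17.4% of that range when mostly skipped in wildtype, 37.0% at intermediate level and 80.3% when mostly included. Because every exon had to move by 10 points to be listed, the share has a floor that is higher where less range is left, so this order is set in part by the listing rule.

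**Figure D2:**
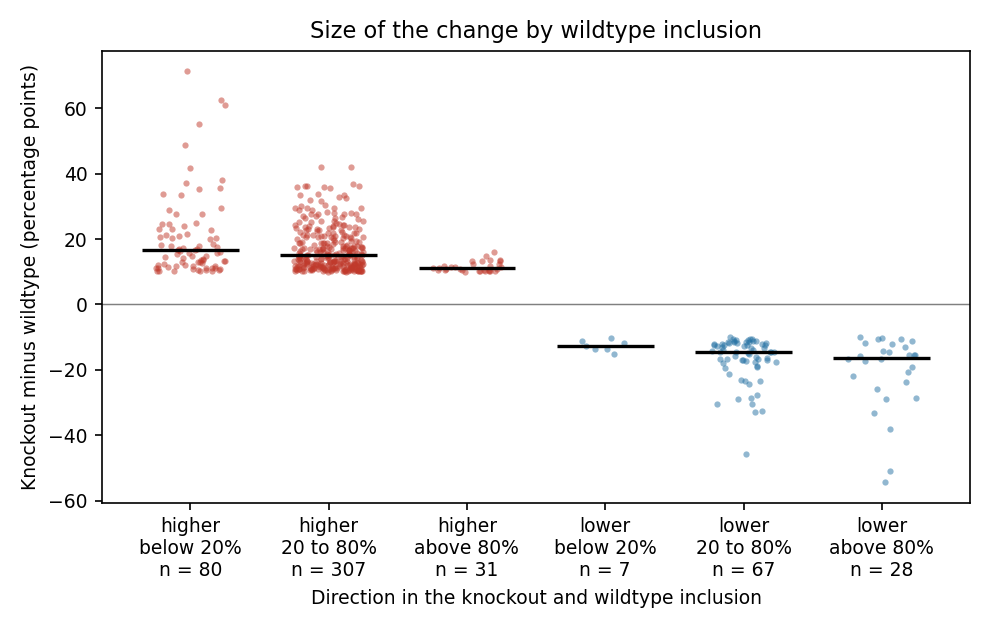
Knockout minus wildtype inclusion (y axis, percentage points) for each exon, grouped by direction and wildtype level; each point is 1 exon and the black bar is the median. The largest positive change was 71.3 points below 20% and 16.02 points above 80%, and the largest negative change lay above 80%, at -54.4 points.

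Among the 102 exons lower in the knockout, 28 (27.5%) were mostly included in wildtype, against 31 of 418 (7.42%) of those higher. The listing rule bears on these shares, since an exon above 90% in wildtype could fall by 10 points but not rise by them. Nothing is read from their difference. These 28 had a median of 91.9% in wildtype against 72.9% in the knockout, and their median change was -16.3 points. Apart from the nested Aen exons described below, the widest margins were those of the Clk1 exon shown above (93.6% and 55.6%) and of a 120-nt exon of Sytl2, a Rab27 effector in vesicle transport (96.2% and 62.9%). For 6 of the 28 the wildtype level was 100%; they lay in Wfdc2 (2 exons), Ssc4d, Irak2, Lair1 and Mthfs, with knockout levels from 74.2 to 89.7%.

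A further 67 exons lay in the intermediate range, with a median of 52.6% in wildtype against 36.2% in the knockout. An untranslated 92-nt exon of Armcx1, a mitochondrial transport protein, was at 76.4% and 30.6%, and exons of Prrx1, a homeobox gene, and Diap2, a formin, at 60.8% and 27.8% and at 63.9% and 33.3%. The authors' deposited table gives a p-value of 0.00481 for Prrx1 and 0.00876 for Diap2, but 9.76e-42 for the 92-nt Armcx1 exon.

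Just 7 exons lower in the knockout were below 20% in wildtype, and their knockout levels were at most 7.84%. In Npnt, an extracellular matrix protein, the 51-nt exon was at 17.1% and 1.98%. A 53-nt untranslated exon of Atg7, an enzyme of autophagy, was at 15.6% and 1.85%, and exons of Wdfy1 and the zinc finger gene Zfp711 at 13.6% and 0% and at 16.4% and 3.66%.

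Some exons lay next to a limit of the level groups. Among exons higher in the knockout, the wildtype levels nearest to 20% were 19.6% (Traf6) and 19.9% (Zfp788) on one side and 20.6% (Trip12) and 20.7% (E2f7) on the other. Those nearest to 80% were 79.5% (Rapgef1), 80% (Pter), 80.4% (Evi5l) and 80.5% (Dclre1c). Among exons lower in the knockout the nearest were 17.9% (Plekha7), 19.6% and 26.2% (both Socs6) and 23.5% (Sun1) around 20%, and 79.7% (Sec22c), 80% (Amn1), 81.4% (Faxc) and 81.9% (Slit2) around 80%.

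In 122 exons the level crossed 50%, upward in 95 and downward in 27. Of all listed exons, 15.5% crossed upward and 4.58% downward; 1 exon listed under PTBP1 alone was among them, and an exon of Ttc23 that ended exactly at 50% was not counted. The upward crossings lay in 90 gene symbols, with medians of 42.2% for wildtype against 62.2% for knockout. Downward crossings lay in 26 gene symbols and had medians of 59.7% and 41.1%.

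Most crossings began close to the line. In 58 of the 95 upward crossings the wildtype level was within 10 points of 50%, as it was in 14 of the 27 downward ones. Crossings from 40% or below to 60% or above numbered 15, and those from 60% or above to 40% or below numbered 4. Nearest to the line in the knockout were Zfp558 (50.3%) and Adam22 (50.7%) among the upward crossings, and N4bp2 (49.5%) and Pikfyve (49.8%) ended just short of it. Pstk (49.2%) crossed downward by the least, whereas exons of Depdc5 (50.3%) and the growth factor receptor Fgfr2 (50.9%) did not cross.

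The upward crossings with the largest changes, after Sympk, were in Slc4a10, a bicarbonate transporter (9.96% and 72.4%), 4930513N10Rik (18.9% and 80%, where the other strand carries an annotated gene), Stam2 and Ikzf4, a zinc finger transcription factor (9.68% and 58.3%). These 5 exons began below 20% and lay in an untranslated region or in transcripts annotated as NMD or non-coding. The next in size among coding exons were those of Scrib, Csnk1g1, Gramd1b, a lipid transfer protein (25.5% and 61.7%, 12 nt), Mtmr1, a phosphoinositide phosphatase (40.7% and 76.7%, 51 nt), and Akap13, an anchor of protein kinase A (33.9% and 69.8%, 66 nt). Further coding crossings were in Ppp3ca, the calcineurin catalytic subunit (41.1% and 64.4%, 30 nt), Magi1, a synaptic and junctional scaffold (36.0% and 71.8%), and Smarcc2, a chromatin remodelling subunit (41.8% and 71.4%).

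Downward, the pair of nested Aen exons, of a nuclease induced by p53, had the widest gaps, from 98.7% to 44.3% and from 98.9% to 47.9%. They share their 3′ end and are not independent. Coding exons of Abi2, a regulator of actin assembly, and Tcf7l2, a Wnt effector, went from 71.5% to 41.1% and from 75% to 47.4%. A 54-nt exon of Atp6v1h, a subunit of the vacuolar proton pump, went from 50.2% to 26.7%.

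**Figure D3:**
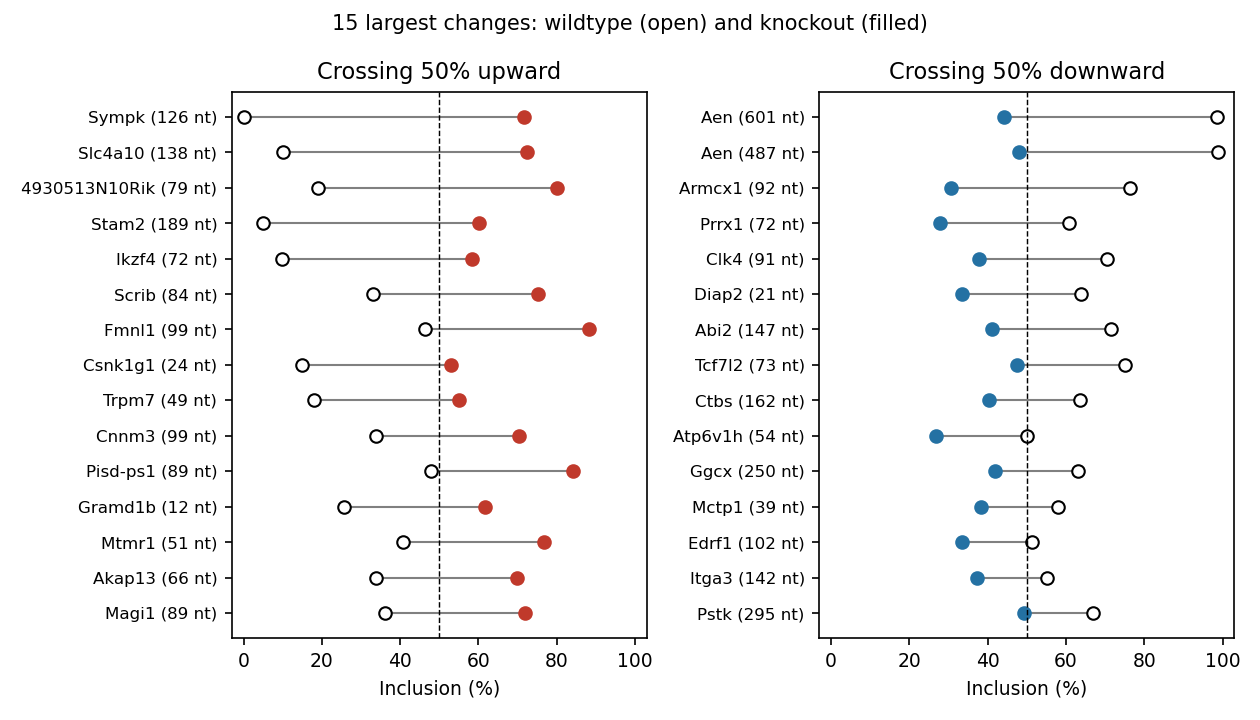
The 15 exons with the largest change among those that crossed 50% upward (left, red) and downward (right, blue); open circles are wildtype and filled circles knockout inclusion in percent (x axis), 1 library each. Sympk moved from 0.220% to 71.5%, while most exons of the right panel began between 50 and 80%.

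Lengths differed with level and direction as well, and neither length nor frame was used to list the exons. The median length was 78.5 nt in the mostly skipped exons higher in the knockout, 90 nt in those of intermediate level and 103 nt in those mostly included. For exons lower in the knockout it was 61 nt (n = 7), 97 nt and 144 nt. Internal coding exons of the annotation, 165262 in number, had a median of 123 nt. With coding members alone, the medians from low to high level were 65, 84 and 85 nt for exons higher in the knockout. For those lower they were 68, 88 and 127 nt. Very short exons of 27 nt or less numbered 45, of which 40 were higher and 5 lower in the knockout; they made up 15% of the mostly skipped exons higher in the knockout and 1.05% of the annotated exons.

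Coding exons that were mostly skipped in wildtype nearly all kept the reading frame: 32 of 36 (88.9%) had a length divisible by 3. At intermediate level 160 of 213 did (75.1%) and above 80% 13 of 24 (54.2%). In coding exons lower in the knockout the counts were 3 of 4, 30 of 46 (65.2%) and 9 of 19 (47.4%), and among all annotated internal coding exons the share was 41.1%. Of coding exons that crossed 50%, 54 of 64 upward (84.4%) and 12 of 20 downward (60%) were divisible by 3. The Clk4 and Magi1 exons, at 91 and 89 nt, crossed and are among those that are not. The Clk1 exon, also of 91 nt and not divisible by 3, did not cross. Over exons of every annotation the shares were lower, at 55% of the mostly skipped, 64.8% of the intermediate and 48.4% of the mostly included exons higher in the knockout. They no longer fell steadily with level. The coding set leaves out exons matched only to NMD transcripts, which were 15 of 80, 17 of 307 and 0 of 31 in the same order. The coding annotation thus itself selects by frame, and its part in the order of the coding shares was not tested.

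**Figure D4:**
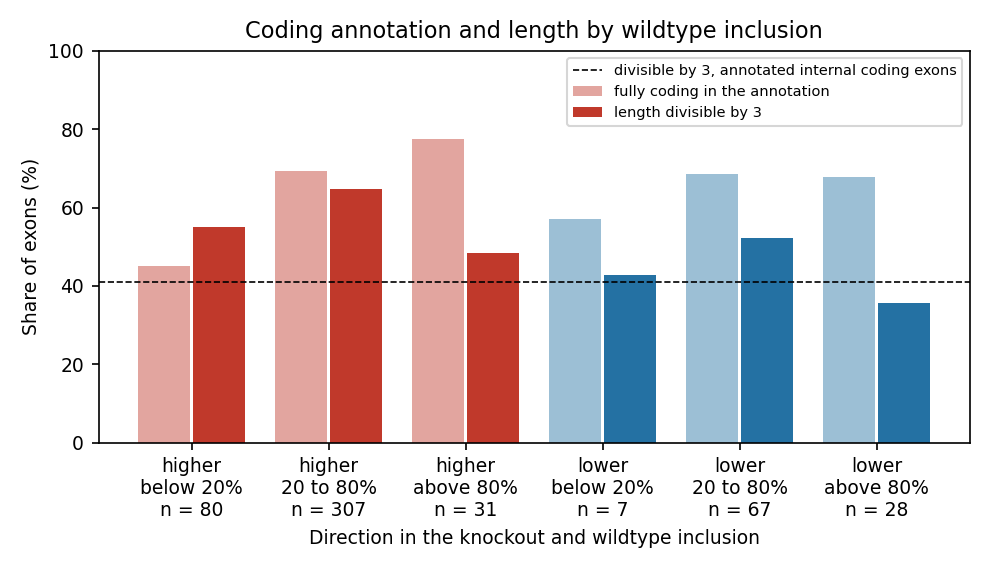
Share of exons (y axis, percent) that are fully coding in the annotation (pale bars) and whose length is divisible by 3 (full bars), by direction (red higher, blue lower) and wildtype level; the dashed line is the share divisible by 3 among annotated internal coding exons, 41.1%. The full bars cover exons of every annotation, whereas the dashed line is of coding exons alone. The coding share is lowest, at 45%, in exons below 20% in wildtype and higher in the knockout.

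Within the exons themselves, pyrimidines made up a median 50% of the bases in those higher in the knockout and 47.3% in those lower, against 47.3% in annotated internal coding exons. TTCTCT or CTCTCT, searched on the strand of the transcript and counted once where they overlap, was in 40 of 418 (9.57%) and 13 of 101 (12.9%), against 8.51% of the annotated exons. The tetramer TCTT was found 0.667 times per 100 bases in the mostly skipped exons higher in the knockout, 0.470 times in the intermediate ones and 0.417 times in those mostly included, against 0.407 in the annotation. In exons lower in the knockout the rates were 0.179 (n = 7 exons), 0.503 (n = 66) and 0.352 (n = 28) per 100 bases in the same order of level. The first rests on too few bases to be read as a rate. The annotated exons compared here are all coding, whereas the members include untranslated, NMD and non-coding exons. From low to high wildtype level, 45, 69.4 and 77.4% of the exons higher in the knockout were fully coding. The sets are therefore unlike, and the part of annotation in these differences was not tested. Windows of unequal length hold a motif with unequal chance, and a match is only a description.

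Genes with several listed exons mostly moved one way. Of 57 such genes, 46 had all their exons higher and 7 all lower in the knockout, and part of these exons overlap: 31 members share bases with another member. As 418 of the 520 members were higher, exons of different genes would often share a direction too, and nothing is read from this count. In Agrn the 24-nt and 33-nt exons shown above were at 43.8% and 66.4% and at 47.0% and 68.8%, and the third listed exon spans both with the intron between them. Synj1, a phosphoinositide phosphatase of synaptic vesicle recycling, had a 48-nt exon at 54.4% and 82.1%, with exons of 21 and 24 nt that share an end. Sorbs2, an actin-linked adaptor, and Mlip, which encodes a lamin-interacting protein, had 3 separate coding exons each, all higher in the knockout by 11.2 to 21.2 and by 11.8 to 16.5 points. An annotated antisense gene overlaps the Sorbs2 exons. The gene with the most listed exons, A730017C20Rik, had 4 that overlap, with changes of 10.2 to 15.5 points.

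In 4 genes, Clk4, Crem, Crtc2 and Depdc5, exons moved in opposite directions. Clk4 had its 91-nt exon at 70.4% in wildtype against 37.7% in the knockout, while a 67-nt exon upstream was at 17.6% and 33.3% and a 59-nt exon, annotated in an NMD transcript, at 16.5% and 26.8%. Crem and Crtc2 belong to the pathway by which cyclic AMP controls transcription through CREB. In Crem a 147-nt coding exon was at 28.4% and 49.2% and a 189-nt coding exon at 50.5% and 33.3%, and in Crtc2 a 407-nt coding exon was at 61.4% and 45.02% and a 67-nt NMD exon at 77.5% and 88.4%. Depdc5, a subunit of a complex that restrains mTORC1, had nested untranslated exons at 24.4% and 38.4% and at 26.0% and 42.8%, and a 61-nt coding exon at 61.5% and 50.3%.

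By function, 14 gene lists with 865 different genes held 142 of the 520 exons, in 115 genes. For all members 80.4% were higher in the knockout and the median change of those higher was 14.5 points. Upward crossings of 50% numbered 95 of the 520 and downward crossings 27. In the lists the share higher ranged from 60 to 100% over 4 to 18 exons. Postsynaptic scaffolds and receptors had 15 exons, all coding, of which 14 were higher and 4 crossed 50% upward, with a median change of 15.98 points among those higher. Beside Magi1 they included the 75-nt exon of Camk2b, a calcium-dependent kinase subunit (60.8% and 93.4%). Shank3, a postsynaptic scaffold, had a 24-nt exon at 39.4% and 50.7%, and 2 exons of Grin1, the obligatory NMDA receptor subunit, were at 48.9% and 60.5% and at 27.4% and 37.7%. The exception was a 60-nt exon of the synaptic adhesion gene Nlgn1, at 36.2% and 16.96%.

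Presynaptic genes had 5 exons higher and 2 lower. Unc13a and Unc13b, paralogues that prime vesicles, were both higher, the second at 43.8% and 57.1%, and Sytl2 was among the lower. All 9 exons of ion channels and transporters were higher and 5 crossed 50% upward, against 95 of the 520 members. The crossings were in the sodium channel Scn8a (36.3% and 55.1%) and in nested exons of the calcium pump Atp2b4 (36.6% and 66.2%, 42.8% and 69.9%). The others were the Slc4a10 and Trpm7 exons, annotated only in non-coding transcripts. The nested exons are not independent, and nothing is read from so small a count. The 27-nt exon of Ank3, which anchors channels at the axon initial segment, was at 54.4% and 71.0%, and an 84-nt exon of the calcium channel Cacna1c at 82.6% and 94.1%. Of 11 axon guidance and adhesion exons 8 were higher; exons of the adhesion genes Cadm3 and Cadm1 (48.7% and 32.7%, 43.5% and 29.2%) and of Slit2, a guidance ligand, were lower. An 801-nt coding exon of the adhesion gene Ncam1 was at 50.2% and 72.0%, and 2 exons of the ephrin receptor Epha5 at 51.6% and 63.8% and at 46.9% and 59.6%.

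Cytoskeletal and traffic genes were mostly higher: 11 of 12 exons of microtubule and motor genes, 10 of 11 of actin and spectrin genes and 12 of 13 of clathrin and membrane traffic genes. The traffic list had a median change of 23.8 points among its exons higher in the knockout, with Dnm2, Synj1, the exocyst subunit Exoc7 (67.2% and 92.3%), the clathrin light chain Cltb (34.3% and 58.1%) and the lipid transfer gene Osbpl9 (29.3% and 54.8%). In the microtubule list a 105-nt exon of Clip2, a plus-end binding protein, was at 67.2% and 91.5%, and 2 coding exons of the kinesin Kif21a were higher by 28.9 and 24.5 points. The 135-nt exon of Map2, a dendritic microtubule-binding protein, was at 35.7% and 47.4%. In the actin list, coding exons of Palld and Pdlim5, which link actin bundles to adhesion sites, stood at 26.7% and 51.9% and at 11.6% and 35.6%. Exons of Dbn1, an actin-binding protein of dendritic spines, and Sptan1, a spectrin, were at 2.12% and 12.4% and at 4.39% and 17.3%. Regulators of small GTPases had 13 of 14 exons higher with a median change of 11.4 points, such as exons of Arhgap44 (45.5% and 69.7%) and Rapgef6 (49.4% and 63.3%), and an exon of Arhgap12 lower (33.7% and 18.8%). All 4 exons of polarity and junction genes and 8 of 9 of kinases and phosphatases were higher.

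Chromatin and transcription genes, the list with the most exons, had 6 of 18 lower in the knockout, and 5 of these crossed 50% downward. Over all members, 102 of 520 were lower and 27 crossed downward, while splicing regulators had 2 of 5 lower. Of the 5 chromatin and transcription crossings, 2 are the nested Aen exons, and the others were in Prrx1, Tcf7l2 and Crem. With so few exons per list, nothing is read from these counts. Exons higher in the knockout included those of the chromatin remodelling subunits Bptf (45.5% and 66.5%, 31.9% and 46.9%) and Dpf2 (49.8% and 68.9%). Genes of mitochondria and ubiquitin had 3 of 10 lower, among them both overlapping Armcx1 exons. There Mff, the receptor that brings the fission GTPase to mitochondria, had its 60-nt coding exon at 63.8% and 78.8%, while the 39-nt exon of that GTPase, Dnm1l, was at 40.7% and 25.5%. RNA-binding and 3′ end processing genes had 7 of 7 higher and splicing regulators 3 of 5. Hnrnpa2b1, an hnRNP protein, had an untranslated 136-nt exon at 81.4% and 92.5%. Neither Ptbp1, Ptbp2 nor Ptbp3 was among the members.

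The BL6 ages gave a second readout for 268 of the 520 exons, those that the authors placed in clusters by age: 248 higher and 20 lower in the knockout. Age and strain both differ from the P1 libraries. The exons were listed for their gap from the P1 wildtype library, and P2 minus wildtype shares that library. An exon listed for a low wildtype value is therefore likelier to be higher in any other library, and one listed for a high knockout value likelier to be lower there. The counts that set P2 against either genotype are a description, with nothing read from their direction. P2 was above P1 wildtype in 196 of the 248 exons, by a median of 9.72 points over all 248, beside a median knockout change of 15.9 points. Against P2 the knockout was higher in 176 of the 248 (71.0%), with a median difference of 6.73 points, and higher by at least 10 points in 102. In the 20 exons lower in the knockout, P2 was below wildtype in 17 and the knockout below P2 in 14, with a median difference of -3.08 points. The part of strain, age or library in this was not tested.

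The same holds for crossings of 50%. Of the 69 upward crossings with age values, P2 was itself above 50% in 40, and with P2 in place of wildtype 34 of the 248 exons crossed upward instead of 69. Between E14 and P10 the level crossed 50% upward in 41 of these 69 exons (59.4%), and in 93 of the 179 exons higher in the knockout that did not cross there (52.0%). All 9 downward crossings with age values also went downward between E14 and P10, but 7 of the 11 other exons did so too.

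**Figure D5:**
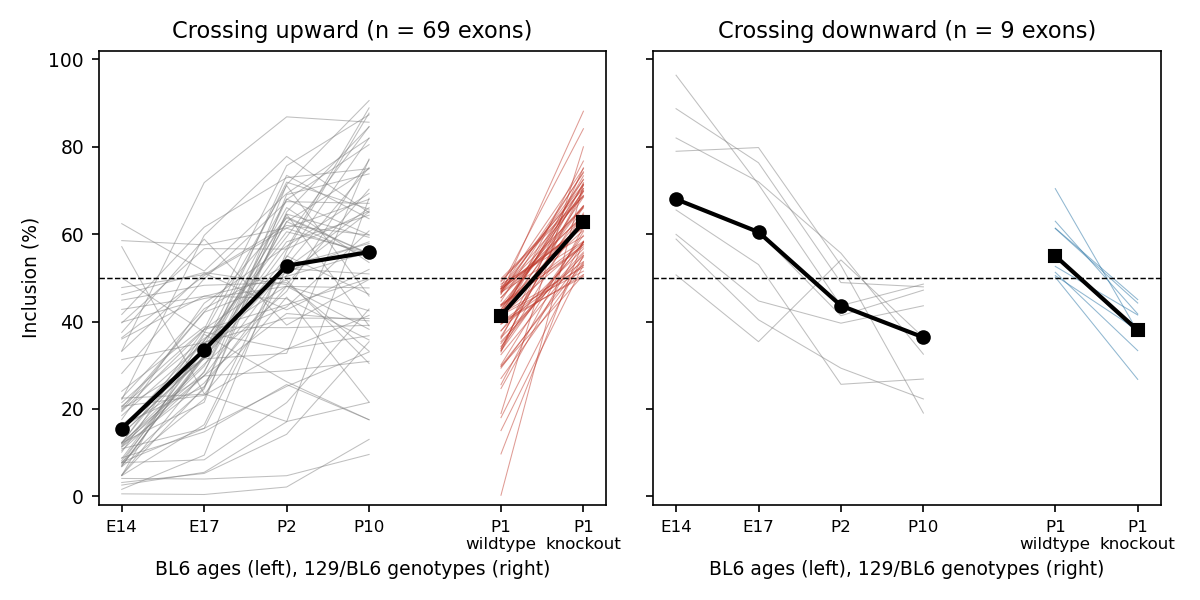
Inclusion (y axis, percent) of the 69 exons that crossed 50% upward and the 9 that crossed downward and have age values; thin lines are single exons, black circles medians at the 4 BL6 ages and black squares medians in the P1 genotypes. For upward crossings the median was 15.5% at E14, 52.8% at P2 and 55.9% at P10, beside 41.3% in P1 wildtype and 62.7% in the knockout.

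Some knockout levels lay beyond every age. This was so in 133 of the 248 exons higher in the knockout (53.6%), whereas P1 wildtype was above every age in 25. The listing rule asked for a knockout level at least 10 points above wildtype, which favours the knockout and disfavours wildtype as the highest library, so nothing is read from these 2 counts. Among the 60 mostly skipped exons with age values, 22 stayed below 20% at all 4 ages, and 17 of those 22 were at 20% or more in the knockout. The listing rule bears on this count too. By that rule an exon above 10% in wildtype had to pass 20% in the knockout, while no such rule held for the ages. Nothing is read from it either. The Sympk exon was at most 13.0% at any age, the Ikzf4 exon 9.55%, the Dnm2 exon 6.98% and the Braf exon 14.2%, beside knockout levels of 71.5, 58.3, 49.5 and 44.6%. Exons of Unc13a and Cyfip2 were highest at P10, at 4.90 and 1.32%. The Ank3 exon was lower at later ages, at 46.1, 36.1 and 20.6% at E14, P2 and P10, beside a knockout level of 71.0%. For the Unc13a and Cyfip2 exons the levels in P2 and P1 wildtype were 2.18% and 1.12% for Unc13a and 0.337% and 0.705% for Cyfip2.

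The Agrn 24-nt exon, at 4.81% at E14, 64.6% at P2 and 59.3% at P10, ended just above the highest age, with the knockout at 66.4%. Other exons ended within the range of the ages. The Ppp3ca exon was at 6.74, 65.1 and 84.6% at the same ages and the Scn8a exon at 7.78, 71.3 and 90.6%, with knockout levels of 64.4 and 55.1%. The Kif1a exon shown above was at 10.9, 60.2 and 63.8%, beside 29.9% in P1 wildtype and 47.3% in the knockout, which stayed below P2. The Dbn1 exon, at 3.34% at P2 and 62.3% at P10, stood at 12.4% in the knockout.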

How the data were processed

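RNA of mouse neocortex was extracted with TRIzol and made into strand-specific Illumina libraries, per the labels' protocols, and aligned with STAR to GRCm38 (mm10), per the submitters' processing notes. The sources used here do not give how inclusion was computed or whether strand was used; 25 members overlap a gene on the opposite strand. The values are inclusion ratios deposited per exon and library as a fraction, turned into percent here. The authors' deposited p-value has an unstated test; of 28 p-values equal to 0, 22 belong to exons at 0 or 100% in a library. For exons that both proteins inhibit, its column appears exchanged with another, so no single p-value is printed for them. The counts of 28 and 22 cover all 520 members and so include values from that column. In the classes of PTBP2 alone it was above 0.01 for 36 of 435 exons. In the 6 genotype tables, 6 columns of a further genotype were not used.

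Changes were recomputed as knockout minus wildtype. Exons were matched by coordinates to GENCODE M21 on GRCm38 (519 of 520), which also gave the exon sequences. No replicate exists, so no test was made between libraries. Members and gene lists were chosen with earlier results of these data known. Exons were named by fixed rules: per direction and wildtype level the 4 largest changes, per direction the 8 largest crossings, up to 5 exons per list, those next to each limit, genes with the most exons or with both directions, and the 4 largest changes in coding exons of at most 27 nt; others were chosen after their values were seen, among them the exons at 0 or 100% in wildtype and those compared by age. Python 3.11.15 with numpy 2.4.6, pandas 2.3.3, scipy 1.17.1 and matplotlib 3.10.9 was used; level groups and crossings were tested on simulated data. Some members are counted in the totals but not reported here by name.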

Additional observations from a re-analysis of the deposited data

How the results depend on the processing

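No paired analysis was possible because each group has 1 library. Of 164 values recomputed under other settings for 46 results, 132 stayed within 1.5 times the count or within the 95% interval over exons, 32 moved and none changed sign. A minimum change of 20 points left 114 exons higher and 23 lower, with 29, 85 and 0 higher and 0, 13 and 10 lower from low to high wildtype level, and 55 upward and 11 downward crossings. Limits of 10 and 90% gave 35 low and 0 high exons among those higher and 0 low and 15 high among those lower; limits of 25 and 75% gave 57 high exons among those higher. In the classes of PTBP2 alone, 4 low exons were lower. Crossing from 40 to 60% held for 15 exons upward and 4 downward. Means in place of medians gave changes of 20.7 and 17.1 points for low and intermediate exons higher in the knockout, -16.8 for intermediate exons lower, and 23.1% of the available range for low ones. Coding exons had a median length of 65 nt among low exons higher in the knockout, and 88.9, 75.1, 65.2 and 84.4% were divisible by 3 among low and intermediate exons higher, intermediate exons lower and upward crossings. Downward crossings of 40% also crossed it between E14 and P10 in 54.5%. With P2 as reference, a setting added after the data were seen like the counts without overlapping exons or exons of 27 nt or less, 102 exons were higher by at least 10 points and 7 lower, with 34 and 4 crossings. Apart from the change that each setting makes by its own construction, the cause was not tested. The planned windows of intron sequence were not run, and exon sequence, also added later, took their place. Depth is unknown, so no interval covers a single level.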
